A study of Mus musculus with 19 samples.

Results

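The 10 genes described here mark T cells and natural killer (NK) cells: Cd3d, Cd3e, Cd3g, Cd8a, Cd8b1, Cd4, Lck, Nkg7, Gzmb and Prf1. They were taken by symbol, without regard to their values, and all 10 are among the 19486 genes of a table of RNA levels in 19 mouse liver tumor libraries. The libraries fall into 5 groups that are named here as the labels name them. MYC_Recur, MYC_Twist1_OFF and MYC_OFF hold 3 libraries each and are new to the series, and MYC_Twist1_HCC and MYC_HCC hold 5 each and were re-analysed from an earlier one. Every library is labelled as tumor tissue of a hepatocellular carcinoma (HCC) in the liver. The labels give no strain, promoter, transgene construct, treatment, time or age, they do not say what OFF and Recur stand for, and separate animals within a group are not stated. The p-values below therefore measure the spread between these samples, which may be technical. Since deposit and group coincide, an effect of the deposit and an effect of the group cannot be told apart in any comparison of a new group with an HCC group. MYC_Recur against MYC_OFF, MYC_Twist1_OFF against MYC_OFF and MYC_Twist1_HCC against MYC_HCC stay within 1 deposit.

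T cells recognise peptides with a receptor whose signal is carried into the cell by the CD3 chains, made from Cd3d, Cd3e and Cd3g. The coreceptors CD8, a pair of chains from Cd8a and Cd8b1, and CD4 bind the presenting molecule and bring the kinase LCK to the receptor, where it phosphorylates the CD3 chains. Cytotoxic T cells and NK cells kill by releasing granules with perforin (Prf1), which opens the target's membrane, and granzyme B (Gzmb), a protease that starts cell death; NKG7 is a membrane protein of these granules. The liver holds a resident population of such lymphocytes, and they can infiltrate its tumors.

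The values are normalized signal values with no stated unit, and their sums per library ran from 507868 to 690310. Values under 1 are treated here as near the floor. By that mark, 64.0% of all genes reached 1 in MYC_OFF 1, the highest share, and 11016 to 12073 genes did in the other 18 libraries. Against the labels, Myc ran from 152 to 159 in MYC_Recur, 32.6 to 45.7 in MYC_Twist1_OFF, 33.9 to 59.8 in MYC_OFF, 102 to 153 in MYC_Twist1_HCC and 129 to 180 in MYC_HCC. Twist1 was at 0.27 or less in all 19 libraries, so the Twist1 in the group names is not visible in the values of this gene. Albumin (Alb), the defining product of hepatocytes, was between 241 and 4480 in every library.

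The 10 markers were low in these tumors. Lck reached 1 in 17 of 19 libraries, Gzmb in 9, Cd3g in 7, Cd3d and Cd4 in 6, Cd8b1 in 4, Prf1 in 2, Cd3e in 1, and Cd8a and Nkg7 in none. The lowest values come in steps that repeat, such as 0.04 for Cd8a in 5 libraries and 0.03 for Cd3e in 4, and sequencing depth is not given in the sources used here. Of the 10 genes, 6 had a value of at least 1 in at least 3 libraries and were tested (Cd3d, Cd3g, Cd8b1, Cd4, Lck and Gzmb). Cd8b1 passed that bound only through libraries of MYC_Twist1_OFF and MYC_OFF, where it is high. Cd4 reached 1 in 4 MYC_HCC libraries and in 1 library each of MYC_Twist1_OFF and MYC_OFF. Cd4 would not have passed without MYC_HCC, where it is high. Cd3e, Cd8a, Nkg7 and Prf1 did not pass it and are described by their values. In these bulk samples, fewer cells of a type and less RNA per cell cannot be told apart.

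**Figure D1:**
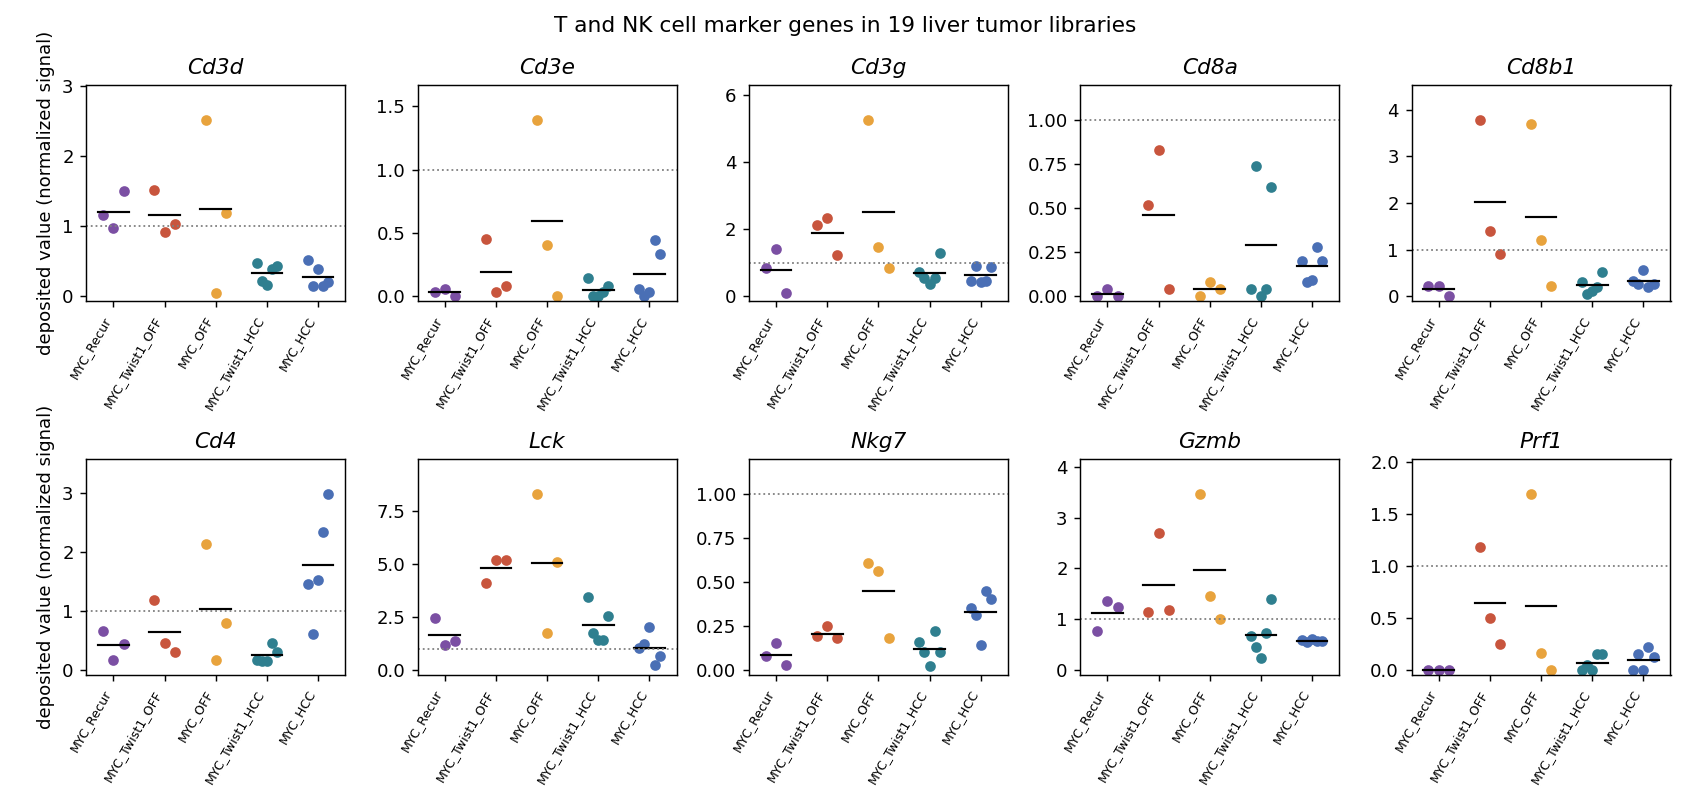
Deposited value (normalized signal) of each of the 10 markers in each library, by group. Points are libraries, black bars are group means and the dotted line marks a value of 1; MYC_OFF 1, with 8.29 for Lck and 5.26 for Cd3g, is the highest library in 7 of the 10 panels.

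All 10 genes have a position in the GRCm38 (mm10) annotation. Cd3g lies on chromosome 9 at 44969572 to 44980431 on the minus strand, 1354 bases from Cd3d (44981786 to 44987339, plus strand), with Cd3e (44998740 to 45009627, minus strand) 11400 bases beyond Cd3d. The annotation has Gm48719 antisense to Cd3e, and no source used here states a strand setting, so reads of the pair cannot be told apart if none was used. Cd8b1 (71322788 to 71337494, plus strand) and Cd8a (71373427 to 71379173, plus strand) lie 35932 bases apart on chromosome 6, which also holds Cd4 (124864692 to 124888221, minus strand). Lck lies on chromosome 4 at 129548344 to 129573641 on the minus strand, Nkg7 on chromosome 7 at 43437073 to 43438249 on the plus strand, Gzmb on chromosome 14 at 56258838 to 56262260 on the minus strand and Prf1 on chromosome 10 at 61297833 to 61304680 on the plus strand. All 10 are annotated as protein coding.

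Lck, Gzmb and Cd3g rose together in MYC_OFF against MYC_HCC, as described below, so the 250 bases before their RefSeq starts are shown. RefSeq's GRCm38.p6 promoter table held 8 of the 10 markers; Cd8b1 and Cd4 had no entry. The RefSeq start of Gzmb lies upstream of the gene end printed above, and no transcript of the GENCODE annotation begins there. Lck has a pair of starts in the table, and the RNA table gives only 1 value per symbol. Capitals mark the letters TGTGGT or, on the other strand, ACCACA (the core bound by RUNX factors), and AGGAAG or CTTCCT (a core bound by ETS factors), both families that act in T cell genes; the motifs do not overlap here. The sequences run 5′ to 3′ on the gene's strand.
Lck, distal start, minus strand of chr4:129573642-129573891: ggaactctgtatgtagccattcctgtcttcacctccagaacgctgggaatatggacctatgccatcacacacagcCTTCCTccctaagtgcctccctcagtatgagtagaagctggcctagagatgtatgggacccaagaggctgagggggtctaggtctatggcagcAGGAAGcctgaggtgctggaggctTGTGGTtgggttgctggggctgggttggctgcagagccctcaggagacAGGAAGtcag
Lck, proximal start, minus strand of chr4:129558373-129558622: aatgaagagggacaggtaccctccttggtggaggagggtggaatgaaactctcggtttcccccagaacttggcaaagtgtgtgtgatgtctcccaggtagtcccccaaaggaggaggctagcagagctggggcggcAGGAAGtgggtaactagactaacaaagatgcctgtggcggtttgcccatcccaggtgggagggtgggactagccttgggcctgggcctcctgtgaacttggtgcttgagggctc
Gzmb, minus strand of chr14:56262335-56262584: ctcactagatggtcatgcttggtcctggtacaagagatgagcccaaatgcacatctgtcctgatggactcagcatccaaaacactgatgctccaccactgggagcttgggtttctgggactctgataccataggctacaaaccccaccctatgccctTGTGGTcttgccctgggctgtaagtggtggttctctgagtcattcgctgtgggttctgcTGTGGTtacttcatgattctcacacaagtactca
Cd3g, minus strand of chr9:44980432-44980681: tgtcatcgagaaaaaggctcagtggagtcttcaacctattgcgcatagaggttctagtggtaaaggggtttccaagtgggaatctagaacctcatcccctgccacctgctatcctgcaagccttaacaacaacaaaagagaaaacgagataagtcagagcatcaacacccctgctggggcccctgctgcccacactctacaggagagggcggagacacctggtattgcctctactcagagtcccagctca
The distal Lck window held 1 RUNX core and 3 ETS cores, the proximal Lck window 0 and 1, the Gzmb window 2 and 0, and the Cd3g window 0 and 0. Of 32851 promoter windows of the same length in the table, 14.05% held the RUNX letters and 29.48% the ETS letters on either strand. These are matches of letters and describe the windows alone.

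Among the CD3 chains, Cd3g was the most widely seen. It had values of 0.85, 1.40 and 0.09 in MYC_Recur, 2.14, 2.33 and 1.23 in MYC_Twist1_OFF and 5.26, 1.47 and 0.83 in MYC_OFF. It had 0.71, 0.54, 0.35, 0.54 and 1.29 in MYC_Twist1_HCC and 0.45, 0.91, 0.42, 0.44 and 0.87 in MYC_HCC. MYC_OFF 1 stood above all other libraries, and MYC_OFF 3 lay inside the MYC_HCC range. Cd3g rose in MYC_OFF against MYC_HCC (2.52 ± 2.39 against 0.618 ± 0.249, SD, n = 3 and 5; log2 change 0.93, SE 0.34, adjusted p = 0.0248). Without MYC_OFF 1 the call was lost, with a log2 change of 0.41 and an adjusted p of 0.255. It was also lost when limma was fitted to only the groups compared (adjusted p = 0.0614). In MYC_Twist1_OFF against MYC_Twist1_HCC, 1.90 ± 0.59 against 0.686 ± 0.361 (n = 3 and 5) missed the threshold at an adjusted p of 0.0635. That comparison passed without MYC_Twist1_HCC 5 (adjusted p = 0.044), MYC_OFF 1 (0.0179) or MYC_OFF 3 (0.0422), and its adjusted p reached 0.183 without MYC_Twist1_OFF 2. MYC_Recur against MYC_OFF gave a log2 change of -0.85 with an adjusted p of 0.0688, 0.0151 without MYC_OFF 3 and 0.0365 without MYC_Recur 2. Without MYC_OFF 1 the change shrank to -0.33 (adjusted p = 0.421), and without MYC_Recur 3 to -0.53 (0.287).

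Cd3d had values of 1.15, 0.97 and 1.5 in MYC_Recur, 1.51, 0.92 and 1.03 in MYC_Twist1_OFF and 2.51, 0.04 and 1.18 in MYC_OFF. It stayed under 1 in both HCC groups, at 0.47, 0.22, 0.16, 0.38 and 0.43 in MYC_Twist1_HCC and 0.51, 0.15, 0.39, 0.14 and 0.20 in MYC_HCC. Every library of MYC_Recur and MYC_Twist1_OFF lay above every HCC library, while MYC_OFF 2 was the lowest of all 19. No comparison passed. The adjusted p was 0.0514 in MYC_Twist1_OFF against MYC_Twist1_HCC (log2 change 0.69, SE 0.28), 0.0533 in MYC_OFF against MYC_HCC (0.65, SE 0.28) and 0.079 in MYC_Recur against MYC_HCC (0.79, SE 0.28). Whether these passed depended on the libraries and the scaling. Without MYC_OFF 2 the adjusted p in the same order was 0.0107, 0.000778 and 0.019. Without MYC_OFF 1 it was 0.0158, 0.428 and 0.0255, and the MYC_OFF change shrank to 0.25. With all libraries kept, median-of-ratios, upper quartile and trimmed-mean scaling gave 0.0201, 0.0184 and 0.0264 for MYC_Twist1_OFF and 0.0221, 0.0224 and 0.0273 for MYC_OFF. Over all 30 alternatives 8, 5 and 3 passed in the same order, and the highest adjusted p was 0.184, 0.428 and 0.235. In MYC_Recur against MYC_OFF the Cd3d log2 change was 0.14 (adjusted p = 0.74), and its sign turned under 3 of 4 other scalings of the libraries (-0.15, -0.13 and -0.07).

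Cd3e, the CD3 chain used most often as a T cell marker, parted from Cd3d more than from Cd3g. Over the 19 libraries its log2 values had a Pearson r of 0.342 with Cd3d and 0.7 with Cd3g, as a description. It had values of 0.03, 0.06 and 0 in MYC_Recur, 0.45, 0.03 and 0.08 in MYC_Twist1_OFF and 1.39, 0.40 and 0 in MYC_OFF. It had 0.14, 0, 0, 0.03 and 0.08 in MYC_Twist1_HCC and 0.06, 0, 0.03, 0.44 and 0.33 in MYC_HCC. The groups overlap, and only MYC_OFF 1 passed 1. In MYC_Recur, where Cd3d lay between 0.97 and 1.5, Cd3e was at 0.06 or less. A fit without the filter on low values called none of the comparisons for Cd3e (lowest adjusted p 0.0754, in MYC_Recur against MYC_OFF).

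The CD8 chains also parted. Cd8b1 had values of 0.22, 0.21 and 0 in MYC_Recur, 3.78, 1.39 and 0.91 in MYC_Twist1_OFF and 3.70, 1.21 and 0.21 in MYC_OFF. It had 0.31, 0.05, 0.10, 0.20 and 0.51 in MYC_Twist1_HCC and 0.32, 0.25, 0.56, 0.20 and 0.27 in MYC_HCC. All 3 MYC_Twist1_OFF libraries lay above all 13 libraries of the MYC_Recur, MYC_Twist1_HCC and MYC_HCC groups. Cd8b1 rose in MYC_Twist1_OFF against MYC_Twist1_HCC (2.03 ± 1.54 against 0.234 ± 0.184, n = 3 and 5; log2 change 1.19, SE 0.34, adjusted p = 0.00845), a call lost only without MYC_Twist1_OFF 1 among the alternatives run (log2 change 0.80, adjusted p = 0.0866). It rose in MYC_OFF against MYC_HCC (1.71 ± 1.80 against 0.320 ± 0.141; log2 change 0.82, SE 0.34, adjusted p = 0.0456), close to the threshold. That call was lost in 19 of 30 alternatives, and without MYC_OFF 1 the log2 change was 0.32 (adjusted p = 0.399) and without MYC_OFF 3 it was 1.29 (0.00288). Since the filter on low values kept Cd8b1 only through its high OFF libraries, the fit without that filter bears on it, and there the adjusted p was 0.0546 and the call was lost. It fell in MYC_Recur against MYC_OFF (0.143 ± 0.124 against 1.71 ± 1.80, n = 3 each; log2 change -1.03, SE 0.38, adjusted p = 0.0318). That fall missed the threshold without MYC_OFF 1 (log2 change -0.52, adjusted p = 0.21), MYC_OFF 2 (0.0564), MYC_Recur 1 (0.0557), MYC_Recur 2 (0.053) or MYC_Recur 3 (0.0889).

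Cd8a, whose chain pairs with that of Cd8b1, stayed under 1 in all 19 libraries. It had values of 0, 0.04 and 0 in MYC_Recur, 0.52, 0.83 and 0.04 in MYC_Twist1_OFF and 0, 0.08 and 0.04 in MYC_OFF. It had 0.04, 0.74, 0, 0.04 and 0.62 in MYC_Twist1_HCC and 0.20, 0.08, 0.09, 0.28 and 0.20 in MYC_HCC. MYC_OFF 1, with 3.70 for Cd8b1, was listed at 0 for Cd8a. Over the 19 libraries the log2 values of the CD8 chains had a Pearson r of 0.212, as a description; the points share 5 groups and 2 deposits.

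Cd4 was highest in MYC_HCC, unlike the other tested markers. It had values of 0.65, 0.16 and 0.44 in MYC_Recur, 1.18, 0.45 and 0.30 in MYC_Twist1_OFF and 2.13, 0.16 and 0.80 in MYC_OFF. It had 0.16, 0.15, 0.15, 0.45 and 0.31 in MYC_Twist1_HCC and 1.46, 0.60, 1.52, 2.34 and 2.98 in MYC_HCC. The HCC groups did not overlap. Cd4 fell in MYC_Twist1_HCC against MYC_HCC (0.244 ± 0.134 against 1.78 ± 0.91, n = 5 each; log2 change -1.10, SE 0.27, adjusted p = 0.0227), within the re-analysed deposit. In that comparison 3.23% of all tested genes fell and 3.2% rose, and Cd4 was the only marker called. Cd4 passed the filter on low values only with its high MYC_HCC libraries. The limma fit without that filter kept the call (adjusted p = 0.0283). The call was lost without MYC_HCC 5 (log2 change -0.95, adjusted p = 0.0652), without MYC_Twist1_HCC 1 (adjusted p = 0.0563) and without MYC_HCC 4 and 5 together (-0.79, adjusted p = 0.139). Macrophages also express CD4 in some species and states. The 12 tested macrophage and Kupffer cell genes gave 1 rise and no fall in the same comparison. The summed level of the 13 such genes in the table was 379 to 451 in MYC_Twist1_HCC and 234 to 716 in MYC_HCC. MYC_HCC 4 had the lowest of these MYC_HCC sums and MYC_HCC 5 the highest, and these libraries had the highest Cd4. Summed stellate cell and fibroblast genes were 138.2 in MYC_HCC 4, 73.7 in MYC_HCC 5 and 30.9 to 34.4 in MYC_HCC 1 to 3. The part of these cells in the Cd4 difference was not tested. In MYC_Recur against MYC_HCC Cd4 had a log2 change of -0.92 with an adjusted p of 0.0665, and 0.027 without MYC_HCC 2, 0.0334 without MYC_OFF 1 and 0.0447 without MYC_OFF 2; over the alternatives it reached 0.298. In MYC_OFF against MYC_HCC it had -0.51 (adjusted p = 0.172), -0.88 (adjusted p = 0.0249) without MYC_OFF 1 and -0.16 (0.7) without MYC_OFF 2.

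Lck, the kinase that starts signaling at the T cell receptor, gave the difference that held under every alternative run. It had values of 2.43, 1.16 and 1.37 in MYC_Recur, 4.10, 5.16 and 5.19 in MYC_Twist1_OFF and 8.29, 1.76 and 5.06 in MYC_OFF. It had 3.45, 1.74, 1.42, 1.40 and 2.52 in MYC_Twist1_HCC and 1.01, 1.23, 2, 0.21 and 0.64 in MYC_HCC. MYC_Twist1_OFF lay above MYC_Twist1_HCC without overlap, and MYC_OFF 2 lay inside the MYC_HCC range. Lck rose in MYC_OFF against MYC_HCC (5.04 ± 3.27 against 1.02 ± 0.67, n = 3 and 5; log2 change 1.48, SE 0.35, adjusted p = 0.00156). Over 30 alternatives this log2 change ran from 1.08 to 2.21 and its adjusted p from 0.000113 to 0.017. Lck also rose in MYC_Twist1_OFF against MYC_Twist1_HCC (4.82 ± 0.62 against 2.11 ± 0.88; log2 change 0.94, SE 0.35, adjusted p = 0.0348). That call missed the threshold, at adjusted p between 0.0597 and 0.0925, without any 1 of the 3 MYC_Twist1_OFF libraries or without MYC_Twist1_HCC 2, 3 or 4. In the fit without a filter on low values the adjusted p was 0.057. Lck fell in MYC_Recur against MYC_OFF (1.65 ± 0.68 against 5.04 ± 3.27, n = 3 each; log2 change -1.05, SE 0.39, adjusted p = 0.0335). That call was lost without MYC_OFF 1 (log2 change -0.65, adjusted p = 0.181), MYC_OFF 3 (0.0884), MYC_Recur 2 (0.101) or MYC_Recur 3 (0.0839). It was also lost in the fit without a filter on low values (0.0539), with a pseudocount of 0.1 (0.072) and with only the groups compared (0.123).

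Granzyme B was the only granule marker that could be tested. Gzmb had values of 0.76, 1.36 and 1.24 in MYC_Recur, 1.15, 2.70 and 1.19 in MYC_Twist1_OFF and 3.47, 1.45 and 1 in MYC_OFF. It had 0.66, 0.46, 0.23, 0.73 and 1.40 in MYC_Twist1_HCC and 0.58, 0.54, 0.61, 0.57 and 0.56 in MYC_HCC. Every MYC_OFF library lay above every MYC_HCC library, and the MYC_HCC values were close together. Gzmb rose in MYC_OFF against MYC_HCC (1.97 ± 1.32 against 0.572 ± 0.026, n = 3 and 5; log2 change 0.83, SE 0.27, adjusted p = 0.0135), a call lost only without MYC_OFF 1 among the alternatives run (log2 change 0.49, adjusted p = 0.122). In MYC_Twist1_OFF against MYC_Twist1_HCC, 1.68 ± 0.88 against 0.696 ± 0.439 missed the threshold (log2 change 0.65, adjusted p = 0.0568). It passed without MYC_Twist1_HCC 5 (adjusted p = 0.0255), MYC_OFF 1 (0.0265) or MYC_OFF 3 (0.0441). Without MYC_Twist1_OFF 2 the change shrank to 0.39 (adjusted p = 0.3).

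NKG7 stayed near the floor in every library, and perforin in all but 2. Prf1 was listed at 0 in all 3 MYC_Recur libraries, had 1.18, 0.50 and 0.25 in MYC_Twist1_OFF and had 1.69, 0.16 and 0 in MYC_OFF. It had 0, 0.05, 0, 0.15 and 0.15 in MYC_Twist1_HCC and 0, 0.15, 0, 0.22 and 0.12 in MYC_HCC. All 3 MYC_Twist1_OFF libraries lay above the MYC_Twist1_HCC libraries. In the fit without a filter the Prf1 log2 change was 0.58 there, with an adjusted p of 0.0692. Nkg7 had 0.08, 0.15 and 0.03 in MYC_Recur, 0.19, 0.25 and 0.18 in MYC_Twist1_OFF and 0.61, 0.56 and 0.18 in MYC_OFF. It had 0.16, 0.10, 0.02, 0.22 and 0.10 in MYC_Twist1_HCC and 0.35, 0.31, 0.14, 0.45 and 0.40 in MYC_HCC. The highest Nkg7 value in any library was 0.61. The unfiltered fit called a fall of Nkg7 in MYC_Recur against MYC_OFF (log2 change -0.40, SE 0.11, adjusted p = 0.007), where 9.03% of 19324 genes fell and 25.9% rose, and all 6 values behind it are near the floor.

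Put by comparison, 2 of the 6 tested markers rose and none fell in MYC_Twist1_OFF against MYC_Twist1_HCC (Cd8b1 and Lck, the last not in the fit without a filter), where 13.1% of all 13253 tested genes rose and 33.5% fell. In MYC_OFF against MYC_HCC 4 rose and none fell (Lck, Gzmb, Cd3g and Cd8b1, the last not in the fit without a filter), where 18.9% of tested genes rose and 39.4% fell. In MYC_Recur against MYC_OFF none rose and 2 fell (Lck and Cd8b1, the first not in the fit without a filter), where 37.5% rose and 12% fell. In MYC_Recur against MYC_HCC limma called 0 of 6, with 6.9% of tested genes called higher and 3.93% lower. Cd3d and Cd4 had an unadjusted p under 0.05 there (0.0113 and 0.00844). The median log2 change of the 6 tested markers was 0.74, 0.83, -0.63 and 0.25 in these 4 comparisons in the same order, beside -0.32, -0.38, 0.45 and 0.08 over all tested genes. Over all 10 markers in the fit without a filter it was 0.62, 0.53, -0.48 and -0.15. Since a gene passed the filter through the groups where it is high, these counts describe the tested markers only.

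**Figure D2:**
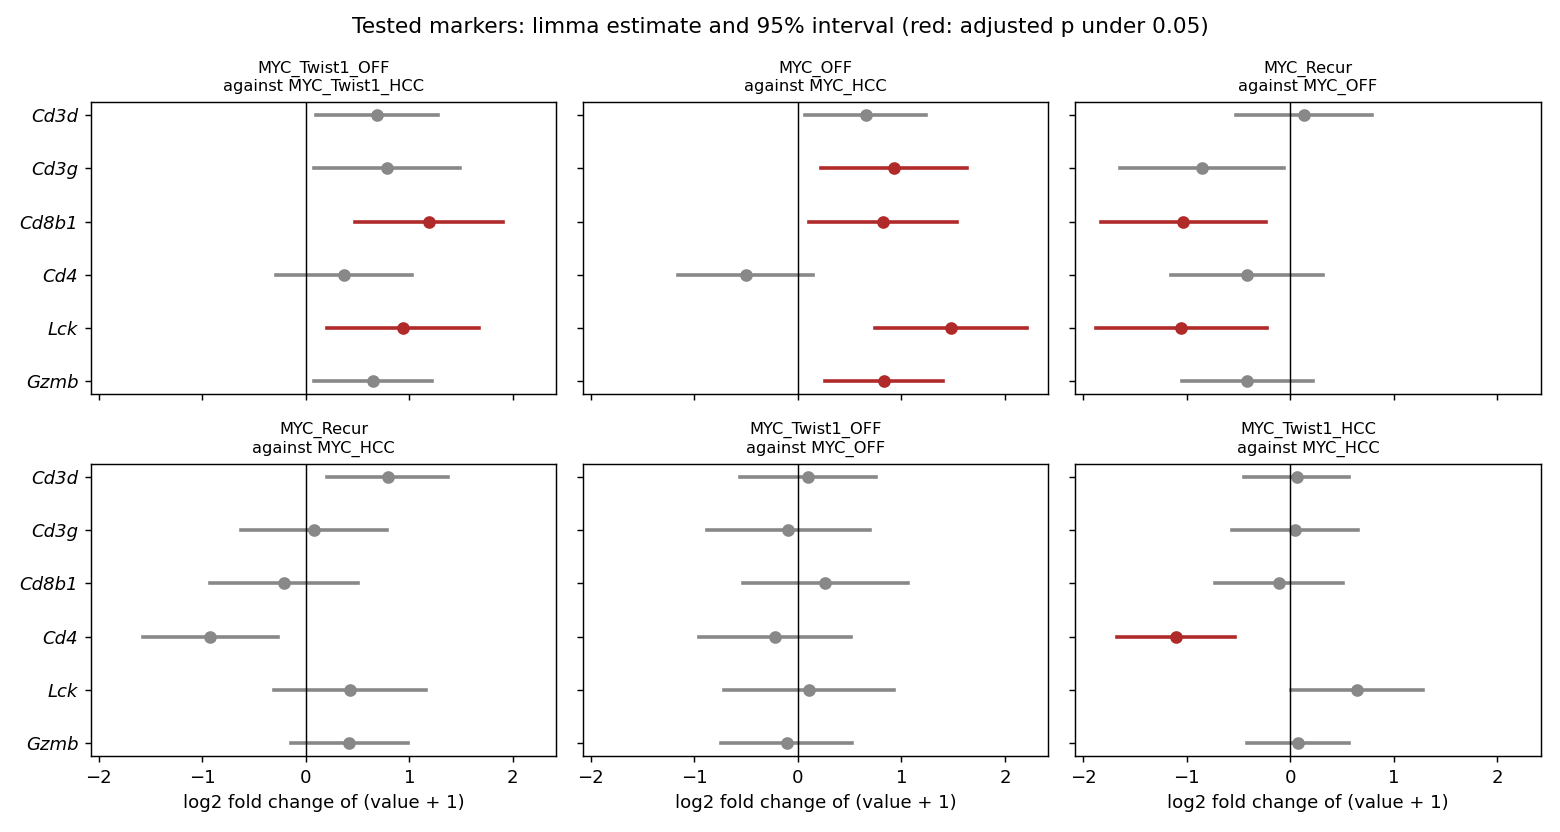
Log2 fold change of value + 1 (x axis) of the 6 tested markers with its 95% interval from limma, in 6 comparisons; red marks an adjusted p under 0.05. Lck lies at 1.48 in MYC_OFF against MYC_HCC, and Cd4 at -1.10 is the only red marker in MYC_Twist1_HCC against MYC_HCC.

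The OFF groups were not shown to differ from each other. In MYC_Twist1_OFF against MYC_OFF limma called none of the 6 tested markers, none with an unadjusted p under 0.05, and 1 of all tested genes (0.00755%, lower). The log2 changes lay between -0.22 for Cd4 and 0.27 for Cd8b1, with 95% intervals as wide as -0.53 to 1.06 for Cd8b1 and -0.71 to 0.93 for Lck. These intervals hold differences as large as several of the calls above. A test of whether the OFF-to-HCC difference was larger with Twist1 in the group name than without it (the interaction) also called none of the 6 markers, with 0.0226% of tested genes higher and 0.0755% lower. Its lowest unadjusted p among the markers was 0.062, for Cd4 (log2 difference 0.88, 95% interval -0.05 to 1.80, adjusted p = 0.654).

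The library MYC_OFF 1 carries much of the OFF pattern. It was the highest of the 19 libraries for 7 of the 10 markers, while 13.7% of all genes, and 24.8% of the genes whose median is above 0 and at most 2, were highest in it. Of the 10 markers, 8 reached 1 in MYC_OFF 1, 4 in MYC_OFF 2 and 3 in MYC_OFF 3. The summed level of the 10 markers was 29.05 in MYC_OFF 1, 7.29 in MYC_OFF 2 and 9.30 in MYC_OFF 3. It was 4.67 to 6.17 in MYC_Recur, 10.4 to 16.2 in MYC_Twist1_OFF, 2.43 to 7.41 in MYC_Twist1_HCC and 4.22 to 6.57 in MYC_HCC. All 3 MYC_Twist1_OFF libraries therefore exceed all HCC libraries in this sum, and MYC_OFF 2 lies inside the MYC_Twist1_HCC range. Without MYC_OFF 1, Lck stayed higher in MYC_OFF than in MYC_HCC (log2 change 1.08, adjusted p = 0.017), and the calls of Gzmb, Cd3g and Cd8b1 were lost.

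The scaling of the libraries bears on these counts. Median-of-ratios factors were 0.683 to 0.895 in MYC_OFF, 0.756 to 0.868 in MYC_Twist1_OFF and 1.03 to 1.29 in the other groups. Dividing by them moved the all-gene median from -0.32 to 0.03 in MYC_Twist1_OFF against MYC_Twist1_HCC, from -0.38 to 0.08 in MYC_OFF against MYC_HCC and from 0.45 to -0.09 in MYC_Recur against MYC_OFF. The share of all calls that were higher moved with it, from 28.0% to 51.5%, from 32.5% to 52.7% and from 75.8% to 47.3% in the same order, and from 63.7% to 50.1% in MYC_Recur against MYC_HCC. After it, 5 of the 6 tested markers (all but Cd4) rose in MYC_Twist1_OFF against MYC_Twist1_HCC, and 4 fell in MYC_Recur against MYC_OFF. Calls over all genes grew too. In MYC_Twist1_OFF against MYC_Twist1_HCC 2946 of 13379 tested genes were higher after it, and 1732 of 13253 before. In MYC_Recur against MYC_OFF 3068 of 13379 were lower after it, and 1585 of 13253 before. None of the 9 called marker differences changed sign under any of the 4 other scalings.

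**Figure D3:**
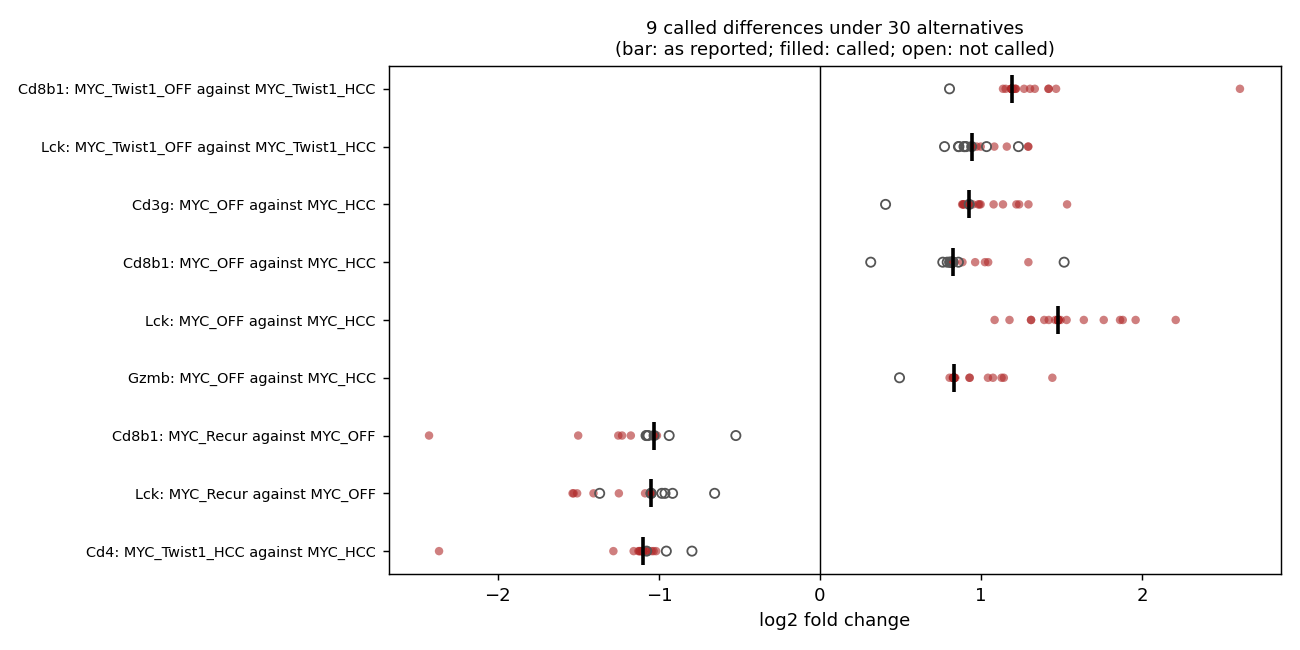
Log2 fold change (x axis) of the 9 called marker differences as reported (black bar) and under 30 alternatives (points; filled red where called, open where not). Lck in MYC_OFF against MYC_HCC is filled throughout, between 1.08 and 2.21, and none of the 9 crosses 0.

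The other genes of the T cell receptor and T cell surface did not move as a group. For this list and those below, the shares over all tested genes are those given before. In MYC_Twist1_OFF against MYC_Twist1_HCC 13.1% rose and 33.5% fell, and in MYC_OFF against MYC_HCC 18.9% rose and 39.4% fell. In MYC_Recur against MYC_OFF 37.5% rose and 12% fell. Counts out of so few genes are not read as moves of a cell type. Of 22 listed genes 9 were tested; 1 rose and 1 fell in MYC_Twist1_OFF against MYC_Twist1_HCC, 4 rose and 2 fell in MYC_OFF against MYC_HCC, and 2 rose and 2 fell in MYC_Recur against MYC_OFF. Without MYC_OFF 1 only 6 of the 22 could be tested, and none rose and 2 fell in MYC_OFF against MYC_HCC, with 2 rises and no fall in MYC_Recur against MYC_OFF. Sla2, an adaptor that dampens receptor signaling, gave the lowest p of the list. Sla2 had values of 9.78 to 11.14 in MYC_OFF against 28.12 to 43.98 in MYC_HCC (log2 change -1.68, SE 0.18, adjusted p = 6.26e-07) and 9.82 to 14.59 in MYC_Twist1_OFF against 22.91 to 32.82 in MYC_Twist1_HCC (-1.18, adjusted p = 5.01e-05). In MYC_Recur Sla2 was at 38.54 to 40.42. Cd247, the zeta chain of the same receptor complex, rose in MYC_Recur against MYC_OFF (8.87, 9.41 and 7.89 against 3.94, 2.35 and 2.65; log2 change 1.31, adjusted p = 0.000125), a comparison in which Lck fell. Other called genes of the list rose with the markers. Il2rg, the common cytokine receptor gamma chain, was the 1 rise in MYC_Twist1_OFF against MYC_Twist1_HCC (4.72 to 7.39 against 1.25 to 3.91; log2 change 1.09, adjusted p = 0.0252), a call lost without MYC_Twist1_OFF 1 or 2 or MYC_Twist1_HCC 3 or 5. Il2rb, a receptor chain for interleukins of T and NK cells, rose in MYC_OFF against MYC_HCC (0.89 to 3.94 against 0.58 to 1.05; log2 change 1.01, adjusted p = 0.0102), a call lost without MYC_OFF 1 or MYC_OFF 3. Cd7, a surface protein of T and NK cells, rose there too (1.5 to 9.53 against 0.09 to 1.61; log2 change 1.68, adjusted p = 0.0191), a call lost without MYC_OFF 1. Sit1, a transmembrane adaptor of lymphocytes, had 4.24, 4.15 and 0.38 in MYC_OFF and was listed at 0 in all 5 MYC_HCC libraries (adjusted p = 0.00016). Outside the OFF groups Sit1 was at 0.22 or less, so it passed the filter on low values only through groups where it is high. Its call was lost in none of the 27 alternatives that could test it, the fit without that filter included. Cd69, an early activation marker, had 2.04, 0.56 and 1.91 in MYC_Recur and at most 0.11 in MYC_HCC, and rose (log2 change 1.21, adjusted p = 0.00589). Cd69 reached 1 in 2 MYC_Recur libraries and 1 MYC_OFF library, so it passed the filter only with its high MYC_Recur libraries. Its call was lost in none of the 26 alternatives that could test it.

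Several other T cell genes were at or near 0 in all groups, while Zap70 and Cd2 passed 1 in some libraries. Cd5, Cd6, Cd27 and Trat1 were listed at 0 in all 9 libraries of MYC_Recur, MYC_Twist1_OFF and MYC_OFF, and they reached at most 0.17, 0.08, 0.19 and 0.06 in the HCC groups. The kinase Zap70, which LCK activates, was at 0.26 or less in MYC_Twist1_OFF and at 0.11 or less in MYC_OFF, and at 0.63 to 3.27 in MYC_Recur. The coreceptor gene Cd28 was at 0.22 or less in every library. Cd2, an adhesion receptor of T and NK cells, reached 1.48 in MYC_Twist1_OFF and 2.49 in MYC_OFF, in replicate 1 of each.

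Among T and NK transcription factors, 13 of 14 listed genes were in the table and 6 were tested. In MYC_Twist1_OFF against MYC_Twist1_HCC 2 rose and 1 fell, in MYC_OFF against MYC_HCC 1 rose and 1 fell, and in MYC_Recur against MYC_OFF 1 rose and none fell. After median-of-ratios scaling the last comparison turned round, with none of 7 rising and 2 falling, and without MYC_OFF 1 it gave no call. Ikzf3, the lymphoid factor Aiolos, had 1.87 to 5.47 in MYC_Twist1_OFF against 0.30 to 1.81 in MYC_Twist1_HCC and rose (log2 change 1.16, adjusted p = 0.0206), a call lost without MYC_Twist1_OFF 3. Zbtb7b, which directs CD4 T cell fate, fell in both OFF comparisons (log2 change -0.84, adjusted p = 0.00574, and -0.98, adjusted p = 0.00125), but not after median-of-ratios scaling, nor in MYC_Twist1_OFF after upper quartile scaling. Foxp3, the factor of regulatory T cells, rose in MYC_Recur against MYC_HCC (4.74 to 92.65 against 0.93 to 1.99; log2 change 3.04, adjusted p = 0.0192), a call lost without MYC_Recur 2 or without MYC_HCC 4 and 5 together. Its MYC_Recur values were 36.5 ± 48.8, so 1 library weighed most. In MYC_Recur Cd4 was at 0.16 to 0.65, Cd3e at 0 to 0.06 and Cd3d at 0.97 to 1.5. Which cells carried Foxp3 was not tested. Gata3 was listed at 0 in all libraries of MYC_Recur, MYC_Twist1_OFF and MYC_OFF.

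Of 16 NK cell receptors and adaptors 5 were tested, with 1 rise and no fall in MYC_Twist1_OFF against MYC_Twist1_HCC, 1 of each in MYC_OFF against MYC_HCC and 1 of each in MYC_Recur against MYC_OFF. Without MYC_OFF 1 only 4 could be tested, with no rise and 1 fall in MYC_OFF against MYC_HCC and 1 rise and no fall in MYC_Recur against MYC_OFF. Klrc1, an inhibitory NK receptor, had 1.1 to 1.64 in MYC_Twist1_OFF against 0.21 to 0.76 in MYC_Twist1_HCC and rose (log2 change 0.82, adjusted p = 0.00702). It rose in MYC_OFF against MYC_HCC (log2 change 0.59, adjusted p = 0.0323), a call lost without MYC_OFF 1 or MYC_HCC 5. Outside the OFF groups Klrc1 was at 0.76 or less, so it passed the filter on low values only through groups where it is high. Neither rise was lost in the fit without that filter. Fcgr3, an Fc receptor shared with macrophages, fell in MYC_OFF against MYC_HCC (2.19 to 5.06 against 6.70 to 18.25; log2 change -1.25, adjusted p = 0.00107). Klrd1 was listed at 0 in all libraries of MYC_Recur, MYC_OFF and MYC_Twist1_HCC.

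Of 15 further cytotoxic granule and effector genes 10 were tested; 2 rose and 1 fell in MYC_Twist1_OFF against MYC_Twist1_HCC, 3 rose and 2 fell in MYC_OFF against MYC_HCC and 2 rose and 1 fell in MYC_Recur against MYC_OFF. Without MYC_OFF 1, 9 were tested, and the last 2 comparisons gave 2 rises and 2 falls, and 2 rises and no fall. Unc13d, which primes granules for release, rose in MYC_OFF against MYC_HCC (0.35 to 3.02 against 0 to 0.57; log2 change 1.16, adjusted p = 0.00229). Outside the OFF groups Unc13d was at 0.68 or less, so it passed the filter on low values only through groups where it is high. Its call was lost in none of the 27 alternatives that could test it, the fit without that filter included. Rab27a, which docks granules at the membrane, fell in MYC_OFF against MYC_HCC (0.18 to 0.38 against 2.03 to 5.67; log2 change -1.70, adjusted p = 0.000193). Lamp1, a membrane protein of granules and of lysosomes in all cells, also fell (29.45 to 68.37 against 163.7 to 259.9; log2 change -2.19, adjusted p = 6.61e-06). The cytokine Tnf rose there, at 28.82, 10.97 and 6.06 in MYC_OFF against at most 0.28 in MYC_HCC (log2 change 3.51, adjusted p = 0.00523). Granzyme A (Gzma) was at 1.88 to 3.45 in MYC_OFF against 0.89 to 2.09 in MYC_HCC, and interferon gamma (Ifng) was at 0.11 or less in all 19 libraries.

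The chemokine and homing genes went in a common direction in the calls made. Of 13 listed genes 6 were tested; 3 rose and none fell in MYC_Twist1_OFF against MYC_Twist1_HCC, 2 rose and none fell in MYC_OFF against MYC_HCC, and none rose and 3 fell in MYC_Recur against MYC_OFF. Without MYC_OFF 1 the last count was 1. Xcl1, a chemokine that T and NK cells release to attract dendritic cells, had 34.33, 4.89 and 2.78 in MYC_OFF against 0.56 to 1.54 in MYC_HCC (log2 change 2.15, adjusted p = 0.00192). It had 16.45, 5.54 and 5.27 in MYC_Twist1_OFF against 0.42 to 2.43 in MYC_Twist1_HCC (log2 change 1.88, adjusted p = 0.00712), a call lost without MYC_Twist1_OFF 1.

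Most of the called genes that all leukocytes share went the opposite way to the called markers in the OFF comparisons. Ptprc, which encodes the leukocyte antigen CD45 that T and NK cells carry, was at 0.50, 0.13 and 0.85 in MYC_OFF against 3.08 to 5.29 in MYC_HCC and fell (log2 change -1.73, SE 0.29, adjusted p = 7.29e-05). It fell in MYC_Twist1_OFF against MYC_Twist1_HCC (0.31 to 0.75 against 1.64 to 6.70; log2 change -1.44, adjusted p = 0.000697) and rose in MYC_Recur against MYC_OFF (4.40 to 5.22 against 0.13 to 0.85; log2 change 1.97, adjusted p = 8.79e-05). Of 12 pan-leukocyte genes 11 were tested, with 2 rises and 7 falls in MYC_Twist1_OFF against MYC_Twist1_HCC, 2 and 6 in MYC_OFF against MYC_HCC, and 5 and 1 in MYC_Recur against MYC_OFF. Over all tested genes 13.1% rose and 33.5% fell, 18.9% rose and 39.4% fell, and 37.5% rose and 12% fell in the same order. Most calls of the whole table thus went the same way as those of this list. After median-of-ratios or upper quartile scaling the 7 falls were 4. The actin bundler Lcp1 and the GTPase Rac2 fell with Ptprc in both OFF comparisons, and the tetraspanin Cd53 rose in both (log2 change 0.74 and 1.38), the first call being lost without MYC_Twist1_OFF 2, MYC_Twist1_OFF 3 or MYC_Twist1_HCC 4. The summed level of the 12 genes was 70.2 to 91.3 in MYC_Recur, 40.6 to 56.0 in MYC_Twist1_OFF, 46.3 to 57.0 in MYC_OFF, 68.4 to 102 in MYC_Twist1_HCC and 92.2 to 150 in MYC_HCC.

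**Figure D4:**
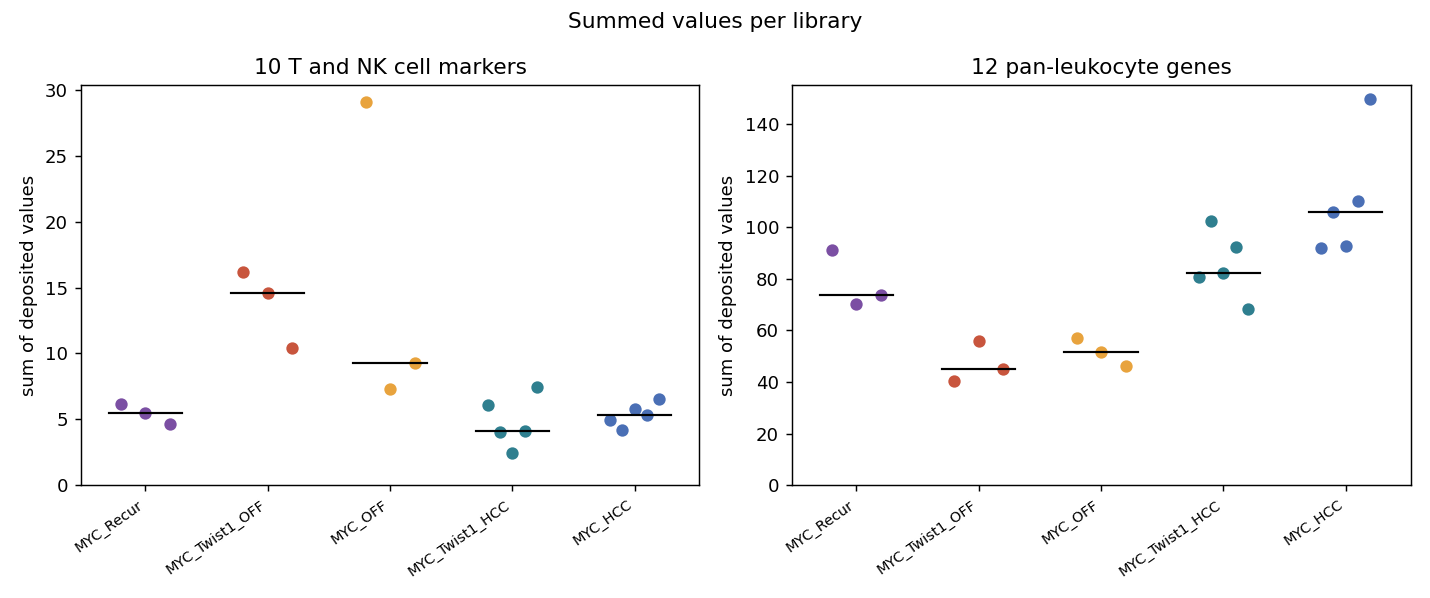
Summed deposited values (y axes, normalized signal) of the 10 T and NK cell markers (left) and of 12 pan-leukocyte genes (right) in each library; points are libraries and bars are group medians. The OFF libraries reach 29.05 on the left, and on the right they lie between 40.6 and 57.0, under all other libraries.

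Genes that mark other cells were also called in the same comparisons. Of all tested genes, 13.1% rose and 33.5% fell in MYC_Twist1_OFF against MYC_Twist1_HCC. In MYC_OFF against MYC_HCC 18.9% rose and 39.4% fell, and in MYC_Recur against MYC_OFF 37.5% rose and 12% fell. Several of the counts below lie near these shares and are not read as moves of a cell type. B cell markers had 3 of 10 genes tested, with no rise and 1 fall in both OFF comparisons, and Blk, a kinase of B cell receptor signaling, was listed at 0 in all libraries of MYC_Recur, MYC_Twist1_OFF, MYC_OFF and MYC_Twist1_HCC. Their summed level was 4.12 to 31.9 in MYC_Recur, 3.50 to 5.75 in MYC_Twist1_OFF, 2.60 to 4.96 in MYC_OFF, 5.69 to 8.67 in MYC_Twist1_HCC and 4.04 to 7.60 in MYC_HCC. Of 7 tested dendritic cell genes 2 rose and none fell in MYC_Twist1_OFF against MYC_Twist1_HCC, and 3 rose and none fell in MYC_OFF against MYC_HCC. Of 8 tested neutrophil and mast cell genes 3 rose and 1 fell, and 4 rose and 1 fell, in the same order. Of 12 tested macrophage and Kupffer cell genes 2 rose and 1 fell, and 2 rose and 3 fell. Of 8 tested endothelial genes 2 rose and 1 fell, and 2 rose and 2 fell, in the same order, with a median log2 change of -0.03 and -0.22. Pecam1, an adhesion molecule of endothelial cells and leukocytes, rose in both (75.6 ± 26.8 against 6.78 ± 3.54, and 53.0 ± 28.5 against 9.47 ± 10.55), while Stab2, a scavenger receptor of liver sinusoids, fell in both. Of 11 tested hepatocyte genes 1 rose and 7 fell in MYC_Twist1_OFF against MYC_Twist1_HCC, and 1 rose and 9 fell in MYC_OFF against MYC_HCC. Of 8 tested stellate cell and fibroblast genes 2 rose and none fell, and 1 rose and 2 fell, and of 4 tested plasma cell genes none rose and 1 fell, and 2 rose and 2 fell, in the same order. All 8 proliferation genes rose in MYC_Recur against MYC_OFF, while 7 fell in MYC_Twist1_OFF against MYC_Twist1_HCC and 6 in MYC_OFF against MYC_HCC. The part of these cells and of proliferation in the marker differences was not tested.

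Likeness over the 19 libraries was ranked among tested genes with a known symbol, the markers left out. The genes whose log2 values followed the mean of the 10 markers most closely were not lymphocyte markers of the lists above. Untested genes of these lists could not appear, and only 9 of 22 T cell receptor and surface genes and 5 of 16 NK genes were tested. Among 11761 genes compared the 8 highest Pearson r were those of Tcp11l1 (0.965), Arid5b (0.962), Cpeb1 (0.959), AU015836 (0.955), Enc1 (0.954), Reep3 (0.954), Eif5a2 (0.953) and Ccnjl (0.953). Arid5b, a chromatin-binding factor, had values of 4.29 to 6.54 in MYC_Recur, 14.1 to 38.0 in MYC_Twist1_OFF, 9.98 to 77.6 in MYC_OFF, 3.83 to 11.2 in MYC_Twist1_HCC and 5.17 to 7.43 in MYC_HCC. Without MYC_OFF 1 and MYC_Twist1_OFF 1, which have the highest marker means, the r of these 8 genes was 0.813 to 0.899 (n = 17). The libraries share 5 groups and 1 table, so these are descriptions with no test. Among the markers themselves, log2 values gave r = 0.920 for Cd8b1 with Prf1 and 0.858 for Cd8b1 with Cd3g. They gave -0.148 for Cd4 with Lck and -0.0019 for Nkg7 with Lck.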

How the data were processed

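Total RNA of 19 flash-frozen mouse liver tumors was sequenced from libraries made by BGI, per the labels' protocols. What was deposited is 1 normalized signal value per symbol and library. Trimmomatic, STAR, Picard, featureCounts and DESeq2 are named with the mm10 genome, per the submitters' processing notes; how the signal was calculated, tool versions, annotation and strand setting are not stated there. Depth per library is unknown, so no counting interval is given. Of 19511 rows, 25 with bare numbers as symbols were left out. Mouse gene names matched 18142 symbols.

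Genes with a value of at least 1 in at least 3 libraries (13253) were tested with limma 3.58.1 (R 4.3.3, intensity trend) on log2(value + 1), a scale that understates changes of low genes. The fit held all 5 group means and left 14 residual degrees of freedom. Tests are two-sided, with Benjamini-Hochberg adjustment over all tested genes, and a call is an adjusted p under 0.05. Group values are mean ± SD. The step was tested on simulated data. Scaling, pseudocount, filters, groups fitted, trend, replicate block and libraries left out gave 30 alternatives. No library pair within a group was identical.

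All 10 markers are named. Other lists could contribute up to 4 called genes per comparison, those of smallest p, plus 1 more if their calls had both directions. Zap70, Cd2, Cd28, Gzma, Ifng and the genes listed at 0 fall outside this rule and were chosen after their values were seen. The markers and lists were chosen with earlier results of these data known. Some genes of these lists are counted but not reported here by name.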

Additional observations from a re-analysis of the deposited data

How the results depend on the processing

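Counts of tested markers called moved as follows. In MYC_Twist1_OFF against MYC_Twist1_HCC the 2 calls were 5 with median-of-ratios, upper quartile or trimmed-mean scaling, 4 with only the groups compared and 1 with no filter, and 0 to 5 with 1 library left out (0 without MYC_Twist1_OFF 1). Over all genes, 1732 of 13253 were higher there as reported. The same settings gave 2946 and 2963 of 13379, 2433 of 13321, 2165 of 13253 and 1844 of 19324 in the same order. Without MYC_Twist1_OFF 1 it was 1121 of 13092. In MYC_OFF against MYC_HCC the 4 were 5 with median-of-ratios, upper quartile or trimmed-mean scaling or no intensity trend (Cd3d gained), 3 with no filter or a pseudocount of 0.1 (Cd8b1 lost), 2 with only the groups compared and 2 to 4 with 1 library left out. Over all genes, 2511 of 13253 were higher there as reported. In the same order the settings gave 3943 and 3922 of 13379, 3484 of 13321, 2525 of 13253, 2964 of 19324, and 2555 and 2218 of 13253. In MYC_Recur against MYC_OFF the 2 were 4 with median-of-ratios or upper quartile scaling, 1 with a pseudocount of 0.1, 0 with only the groups compared and 0 to 2 with 1 library left out (0 without MYC_OFF 1 or without MYC_Recur 3). Over all genes, 1585 of 13253 were lower there as reported. In the same order the settings gave 3068 and 2953 of 13379, and 1565 and 893 of 13253. Without MYC_OFF 1 it was 1138 of 13050, and without MYC_Recur 3 it was 1142 of 13196. With no filter the markers called there were Cd8b1 and Nkg7, with Lck lost, and 1745 of 19324 genes were lower. In MYC_Recur against MYC_HCC the 0 were 1 with only the groups compared and 0 to 2 with 1 library left out. There 914 of 13253 genes were higher as reported, and 800 with only the groups compared. In MYC_Twist1_HCC against MYC_HCC the 1 was 0 without MYC_HCC 4 and 5 together and 0 to 1 with 1 library left out. There 428 of 13253 genes were lower as reported, and 161 of 13108 without MYC_HCC 4 and 5 together. MYC_Twist1_OFF against MYC_OFF and the interaction stayed at 0 in the alternatives run. The cause of these moves was not tested.

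Deviations of same-numbered libraries of different groups correlated at a mean r of 0.035 (-0.214 to 0.384, 32 pairs). Those of differently numbered libraries correlated at a mean r of -0.010 (-0.449 to 0.280, 110 pairs). Means over all groups cannot exclude a pairing between particular groups. With the replicate number as a block, the calls were 2 in MYC_Twist1_OFF against MYC_Twist1_HCC (Cd3g and Cd8b1), 4 in MYC_OFF against MYC_HCC, 3 in MYC_Recur against MYC_OFF and 1 in MYC_Twist1_HCC against MYC_HCC. Lck in MYC_Twist1_OFF had an adjusted p of 0.0759 under it, and the calls of Ikzf3 and Cd53 in MYC_Twist1_OFF and of Klrc1 in MYC_OFF were lost. Over all genes the block gave 936 calls in MYC_Recur against MYC_HCC, against 1435 without it. Of 13253 tested genes, the block called 1679 higher in MYC_Twist1_OFF against MYC_Twist1_HCC and 2398 higher in MYC_OFF against MYC_HCC. It called 1604 lower in MYC_Recur against MYC_OFF and 462 lower in MYC_Twist1_HCC against MYC_HCC.

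No called marker difference reversed. Differences that were not called did so in these ranges with 1 library left out: in MYC_Twist1_OFF against MYC_OFF, Cd3d -0.37 to 0.51, Cd3g -0.46 to 0.43, Cd8b1 -0.21 to 0.77, Cd4 -0.57 to 0.15, Lck -0.37 to 0.50 and Gzmb -0.37 to 0.23; in MYC_Recur, Cd3d -0.33 to 0.54 against MYC_OFF and Cd3g -0.18 to 0.39 against MYC_HCC; in MYC_Twist1_HCC against MYC_HCC, Cd3g -0.0677 to 0.12 and Gzmb -0.0608 to 0.18; in the interaction, Cd3d -0.43 to 0.44, Cd3g -0.51 to 0.38, Cd8b1 -0.10 to 0.88 and Gzmb -0.44 to 0.15. Cd3d in MYC_Recur against MYC_OFF also reversed with median-of-ratios (-0.15), upper quartile (-0.13) and trimmed-mean scaling (-0.0722). Cd3g in MYC_Recur against MYC_HCC was -0.0834 with a pseudocount of 0.1, and Cd3d in MYC_Twist1_HCC against MYC_HCC was -0.0163 without MYC_HCC 4 and 5 together. Most marker values are near the floor, and the depth that would bound them is unknown.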
